A study of Mus musculus with 6 samples.

Results

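The genes described here are 10 macrophage genes of the liver, taken by symbol from the gene tables of all 6 libraries: Cd163, Marco, Timd4, Vsig4, Cd5l, Siglec1, Clec4f, Msr1, Adgre1 and Csf1r. All 10 were among the 24982 genes listed and the 12949 tested. They were divided, from textbook knowledge, into 7 genes typical of liver-resident macrophages (the first 7) and 3 genes shared by macrophages in general (the last 3). The libraries were made from polyA RNA of flash-frozen liver of male C57BL/6NJ mice, 3 labelled chow diet and 3 labelled high fat + high sugar diet (HFHS). The series text gives 54 weeks of diet and sugar in the drinking water, and it presents the diet as a model of fatty liver disease progressing to liver cancer. The mice carried no stated genetic change and their age is not given in the sources used here. Nothing in the labels says whether tumour was part of the sample, or in so many words that each library came from its own mouse, so p-values here speak only of the variation among these 6 libraries.

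Kupffer cells are the macrophages that live inside the liver sinusoids, where they remove particles, bacteria, dying cells and haemoglobin complexes from portal blood. They are seeded before birth and renew themselves locally. When some are lost, blood monocytes can enter the niche and take on much of the Kupffer cell programme, and Timd4 is known as a gene that such newcomers acquire late. Survival of nearly all macrophages depends on the receptor CSF1R, and scavenger receptors are a mixed group of surface proteins that bind modified lipoproteins and other polyanionic ligands.

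Gene counts ran from 16565335 to 20585366 per library. HFHS replicate 2 stood apart, with Pearson correlations over log2 levels of 0.961 and 0.957 with HFHS replicates 1 and 3, against 0.982 between those. In the bulk liver libraries, 6 hepatocyte markers (Alb among them) summed to 89882 to 108205 CPM in chow and to 32732 to 87071 CPM in HFHS. Levels are given throughout in CPM, each gene's share of the library's counts on the usual scale of that unit, after TMM scaling for differences in composition.

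Of the 10 genes, 7 rose and 2 fell after HFHS, and Timd4 did not pass the test (quasi-likelihood test of edgeR, with p adjusted by Benjamini-Hochberg over all tested genes and a threshold of 0.05). Over all tested genes, 11.0% were called higher and 3.61% lower. The 2 that fell, Cd163 and Marco, are both scavenger receptors of the resident-cell set, and the 7 that rose included 4 of the 7 resident-cell genes (Vsig4, Cd5l, Siglec1 and Clec4f) and all 3 general macrophage genes. The median log2 fold change was 1.02 over the resident-cell genes and 1.70 over the general macrophage genes, beside -0.02 over all tested genes. For each of the 9 genes called, the HFHS libraries lay wholly on one side of the chow libraries, which was so for 21.5% (above) and 18.0% (below) of tested genes. Without chow replicate 3, edgeR called only Cd163 among the 10, with 9 of them at an unadjusted p under 0.05, adjusted p of 0.0508 to 0.0725 for the other 8 called genes, and 6 calls over the whole table (4 higher and 2 lower). Over all tested genes, 32.3% had an unadjusted p under 0.05 with all libraries, 27.3% with chow replicate 2 left out and 24.1% with chow replicate 3 left out. The counts at that level given for the gene lists are to be read against these shares. With all libraries edgeR called 1428 genes higher and 468 lower over the whole table. It called 762 and 177 without chow replicate 1, and 345 and 113 without chow replicate 2. Without HFHS replicates 1, 2 and 3 it called 1184 and 293, 1226 and 391, and 1664 and 772. DESeq2 called 1868 and 1006, and limma-voom 992 and 370. Calls in the gene lists under these settings are to be read against these numbers. In a bulk tissue, fewer cells of a type and less RNA per cell cannot be told apart.

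**Figure D1:**
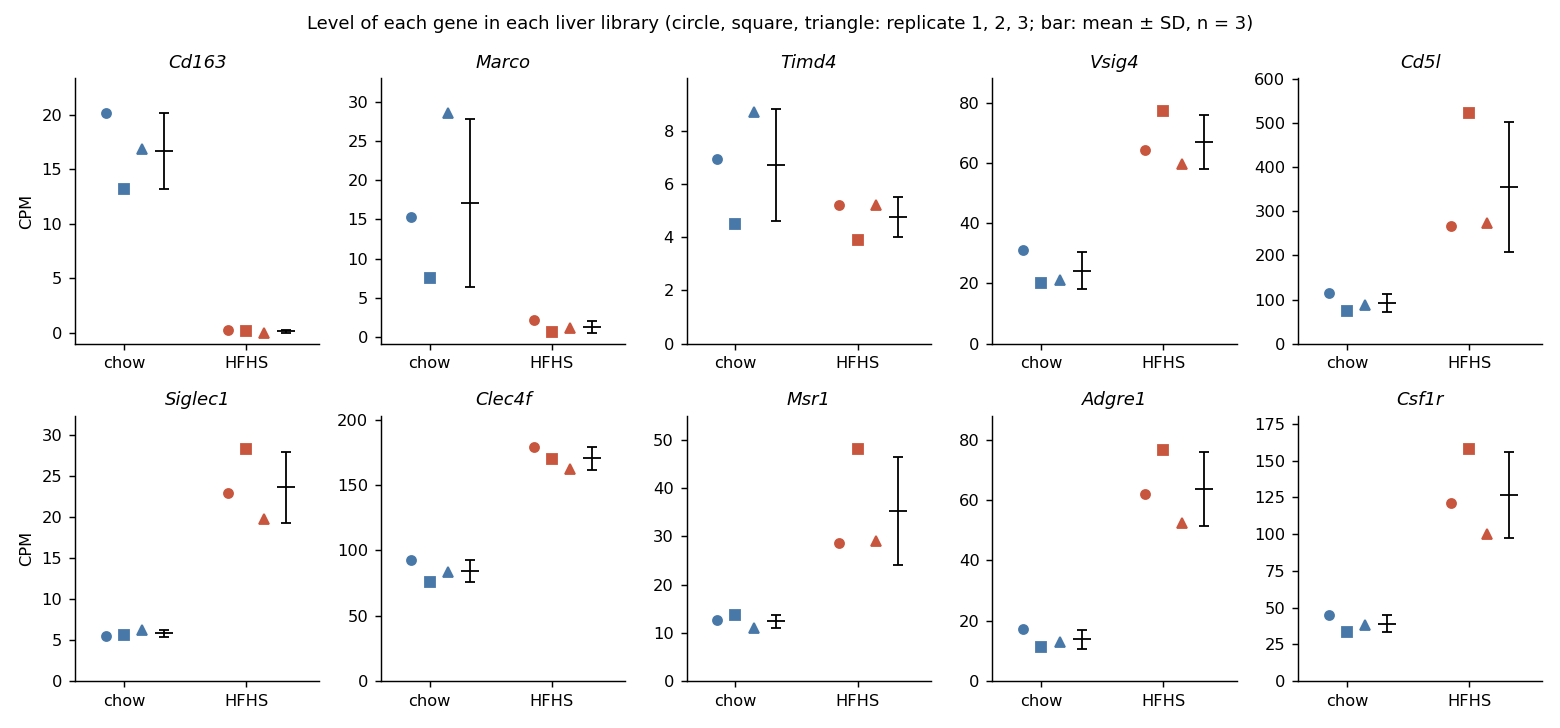
CPM (vertical axis, linear, from 0 or just below) of each of the 10 genes in each library, with chow in blue and HFHS in red, and the mean ± SD of 3 libraries beside them. Cd163 and Marco are near 0 in HFHS, Timd4 overlaps, and in the other 7 panels all 3 HFHS points lie above all 3 chow points.

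Cd163 encodes the receptor through which macrophages take up haemoglobin bound to haptoglobin (chromosome 6, 124304656 to 124330527, plus strand; GENCODE M21 on GRCm38). It had 362, 239 and 250 counts in chow replicates 1, 2 and 3, and 5, 3 and 0 counts in HFHS replicates 1, 2 and 3. In CPM these were 20.1, 13.1 and 16.8 against 0.258, 0.115 and 0, and the 0 of HFHS replicate 3 allows up to 0.168 CPM at a floor of 3 counts. Every HFHS library was thus far below the lowest chow library, and expression in HFHS was close to the limit of detection. The log2 fold change was -6.97 ± 0.49 (SE; edgeR adjusted p = 0.00517), with a size that rests on 8 counts in the HFHS group. It passed without each library in turn, at -7.82 to -6.51.

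Marco encodes a trimeric class A scavenger receptor that binds bacteria and other particles (chromosome 1, 120474538 to 120505024, minus strand). It was at 15.3, 7.48 and 28.6 CPM in chow replicates 1, 2 and 3, and at 2.17, 0.693 and 1.17 CPM in HFHS replicates 1, 2 and 3. Chow libraries differed among themselves by 3.82 times from lowest to highest, the widest chow spread of the 10 genes, yet the lowest chow value stayed above the highest HFHS value. Its log2 fold change was -3.68 ± 0.62 (SE; edgeR adjusted p = 0.0160). The call was lost without chow replicate 3 (-3.10, adjusted p = 0.0598) and without HFHS replicate 2 (-3.33, adjusted p = 0.0604).

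Timd4 encodes TIM-4, a receptor for the phosphatidylserine exposed on dying cells (chromosome 11, 46810800 to 46844332, plus strand). Chow replicates 1, 2 and 3 had 6.95, 4.51 and 8.69 CPM, and HFHS replicates 1, 2 and 3 had 5.22, 3.89 and 5.20 CPM. The groups overlapped, since chow replicate 2 lay below HFHS replicates 1 and 3. The log2 fold change was -0.49 ± 0.27 (SE; edgeR adjusted p = 0.249), a difference not resolved against this spread. It ranged from -0.72 to -0.28 when each library was left out in turn.

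Clec4f encodes a C-type lectin that in the mouse is used as a Kupffer cell marker (chromosome 6, 83644542 to 83656187, minus strand). Values were 92.4, 75.9 and 83.6 CPM in chow replicates 1, 2 and 3 and 179, 170 and 162 CPM in HFHS replicates 1, 2 and 3. Its spread was narrow in both groups, with coefficients of variation of 9.79% and 5.08%, and the groups did not overlap. The rise of 1.02 ± 0.12 on the log2 scale (SE; edgeR adjusted p = 0.00858) was the smallest of the 7 rises.

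Vsig4 encodes CRIg, a complement receptor with which Kupffer cells capture C3-coated particles (chromosome X, 96247203 to 96293438, minus strand). It was at 31.3, 20.0 and 21.2 CPM in chow replicates 1, 2 and 3 and at 64.3, 77.2 and 59.9 CPM in HFHS replicates 1, 2 and 3, with no overlap. Cd5l encodes a secreted protein of the scavenger receptor cysteine-rich family, also called AIM (chromosome 3, 87357881 to 87371073, plus strand). It was at 115, 74.5 and 87.8 CPM in chow replicates 1, 2 and 3 and at 268, 524 and 274 CPM in HFHS replicates 1, 2 and 3. HFHS replicate 2 was well above the other HFHS libraries for Cd5l, and the lowest HFHS value still exceeded the highest chow value. The rises were 1.47 ± 0.19 for Vsig4 and 1.94 ± 0.31 for Cd5l on the log2 scale (SE; edgeR adjusted p = 0.0100 and 0.0132). Cd5l lost its call without chow replicate 2 (1.80, adjusted p = 0.0528) as well as without chow replicate 3.

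The opposite calls of Cd163 and Marco against Vsig4 and Cd5l make their promoters of interest to set side by side. RefSeq (GRCm38.p6, the assembly that mm10 denotes) gave a promoter entry for 6 of the 10 genes: Cd163, Marco, Timd4, Vsig4, Cd5l and Clec4f. The 250 bases upstream of the start are printed 5′ to 3′ along the gene for the 2 genes that fell and 2 that rose. Capitals mark matches on either strand to any of 4 short motifs: GAGGAA (core of the site of the macrophage factor PU.1), TGGGAA (core of the site of RBPJ, the Notch effector), AGGTCA (half-site of nuclear receptors such as LXR) and TGCTGA (half-site of MAF factors).
Cd163, chr6:124304401-124304650, + strand: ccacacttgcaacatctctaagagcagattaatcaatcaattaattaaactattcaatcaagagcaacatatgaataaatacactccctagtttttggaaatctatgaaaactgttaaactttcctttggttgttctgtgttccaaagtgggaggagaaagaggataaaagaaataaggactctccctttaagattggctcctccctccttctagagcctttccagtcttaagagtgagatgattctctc
Marco, chr1:120505025-120505274, - strand: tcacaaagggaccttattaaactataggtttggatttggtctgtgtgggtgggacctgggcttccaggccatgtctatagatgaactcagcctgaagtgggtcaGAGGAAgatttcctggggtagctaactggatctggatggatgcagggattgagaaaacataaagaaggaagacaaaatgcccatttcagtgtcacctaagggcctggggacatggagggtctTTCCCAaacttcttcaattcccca
Vsig4, chrX:96293439-96293688, - strand: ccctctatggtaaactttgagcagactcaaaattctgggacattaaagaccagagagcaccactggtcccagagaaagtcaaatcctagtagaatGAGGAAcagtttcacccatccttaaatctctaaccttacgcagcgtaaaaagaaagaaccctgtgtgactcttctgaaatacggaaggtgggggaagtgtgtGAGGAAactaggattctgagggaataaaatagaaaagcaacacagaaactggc
Cd5l, chr3:87357631-87357880, + strand: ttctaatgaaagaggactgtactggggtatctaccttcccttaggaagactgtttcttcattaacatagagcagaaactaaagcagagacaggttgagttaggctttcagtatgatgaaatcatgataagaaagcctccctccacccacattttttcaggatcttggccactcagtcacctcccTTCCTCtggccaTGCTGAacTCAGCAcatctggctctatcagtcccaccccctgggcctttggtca
In Cd163 there was no match to any of the 4 motifs. The window of Marco held 1 GAGGAA and 1 TGGGAA, that of Vsig4 2 copies of GAGGAA, and that of Cd5l 1 GAGGAA and 2 copies of TGCTGA, 1 on each strand. Among 32817 promoter windows of this length in the table, 23.3% held GAGGAA, 21.6% TGGGAA, 14.0% AGGTCA and 16.1% TGCTGA on either strand, and where matches to different motifs share bases the capitals run together. A match describes letters only and shows no binding, and the absence of one in this window says nothing about the factor.

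Siglec1 encodes sialoadhesin, a receptor for sialic acid on cells and pathogens whose expression is known to respond to interferon (chromosome 2, 131069220 to 131086765, minus strand). Chow replicates 1, 2 and 3 lay close together at 5.45, 5.66 and 6.26 CPM, and HFHS replicates 1, 2 and 3 had 22.9, 28.3 and 19.7 CPM. The groups were wide apart, with a log2 fold change of 2.03 ± 0.17 (SE; edgeR adjusted p = 0.00536), the largest rise among the resident-cell genes.

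Among the general macrophage genes, Msr1 encodes the class A scavenger receptor SR-A, which takes up modified lipoproteins (chromosome 8, 39581685 to 39642673, minus strand). It was at 12.6, 13.6 and 10.9 CPM in chow replicates 1, 2 and 3 and at 28.6, 48.1 and 29.1 CPM in HFHS replicates 1, 2 and 3, highest in HFHS replicate 2 and without overlap. Its log2 fold change was 1.51 ± 0.22 (SE; edgeR adjusted p = 0.0111), so that the class A receptors Msr1 and Marco were called in opposite directions in the same libraries. Adgre1 encodes the adhesion receptor F4/80 (chromosome 17, 57358691 to 57483527, plus strand), at 17.1, 11.2 and 13.0 CPM in chow replicates 1, 2 and 3 and at 62.0, 76.7 and 52.4 CPM in HFHS replicates 1, 2 and 3. Csf1r (chromosome 18, 61100598 to 61132149, plus strand) was at 45.0, 33.5 and 38.3 CPM in chow and at 121, 158 and 100.2 CPM in HFHS replicates 1, 2 and 3. Both genes were highest in HFHS replicate 2 and lowest in chow replicate 2, with no overlap between the diets. They rose by 2.21 ± 0.20 and 1.70 ± 0.19 on the log2 scale (SE; edgeR adjusted p = 0.00754 and 0.00775). Csf1r overlaps Hmgxb3 on the opposite strand and the strand setting of the counting is not given, so some of its counts could come from that gene. The level of Hmgxb3 was 16.6 ± 2.06 CPM on chow diet and 14.9 ± 2.43 CPM on HFHS (SD, n = 3). The microRNA gene Mir6983 lies within Csf1r on the same strand. GENCODE M21 places no other gene over the spans of the remaining 9.

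Because the general macrophage genes rose, each of the other 8 genes was also set against them within the same library, as counts per 100 counts of a reference, the geometric mean of Adgre1 and Csf1r. This ratio does not depend on how libraries are scaled. For Cd163 it was 72.5, 67.8 and 75.4 in chow replicates 1, 2 and 3, a tighter set than its CPM, and 0.298, 0.105 and 0 in HFHS replicates 1, 2 and 3. The ratio for Marco was 55.1, 38.6 and 128 in chow against 2.50, 0.629 and 1.62 in HFHS. For Timd4 it was 25.0, 23.3 and 38.9 in chow against 6.01, 3.53 and 7.17 in HFHS, so on this scale the groups did not overlap, whereas in CPM they did. Clec4f had 333, 392 and 375 in chow and 207, 154 and 224 in HFHS, also without overlap. Cd5l and Siglec1 kept pace with the reference: Cd5l was at 398 ± 16.1 in chow and 388 ± 84.4 in HFHS, and Siglec1 at 25.6 ± 5.23 and 26.4 ± 0.756 (SD, n = 3). Vsig4 was at 104 ± 8.77 and 75.6 ± 6.37, and Msr1 at 54.7 ± 13.4 and 38.9 ± 5.50 (SD, n = 3), both with all HFHS libraries below all chow libraries. On this scale the HFHS libraries lay wholly below the chow libraries for 87.6% of all tested genes and wholly above for 1.08%, so a separation downwards was the common case.

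**Figure D2:**
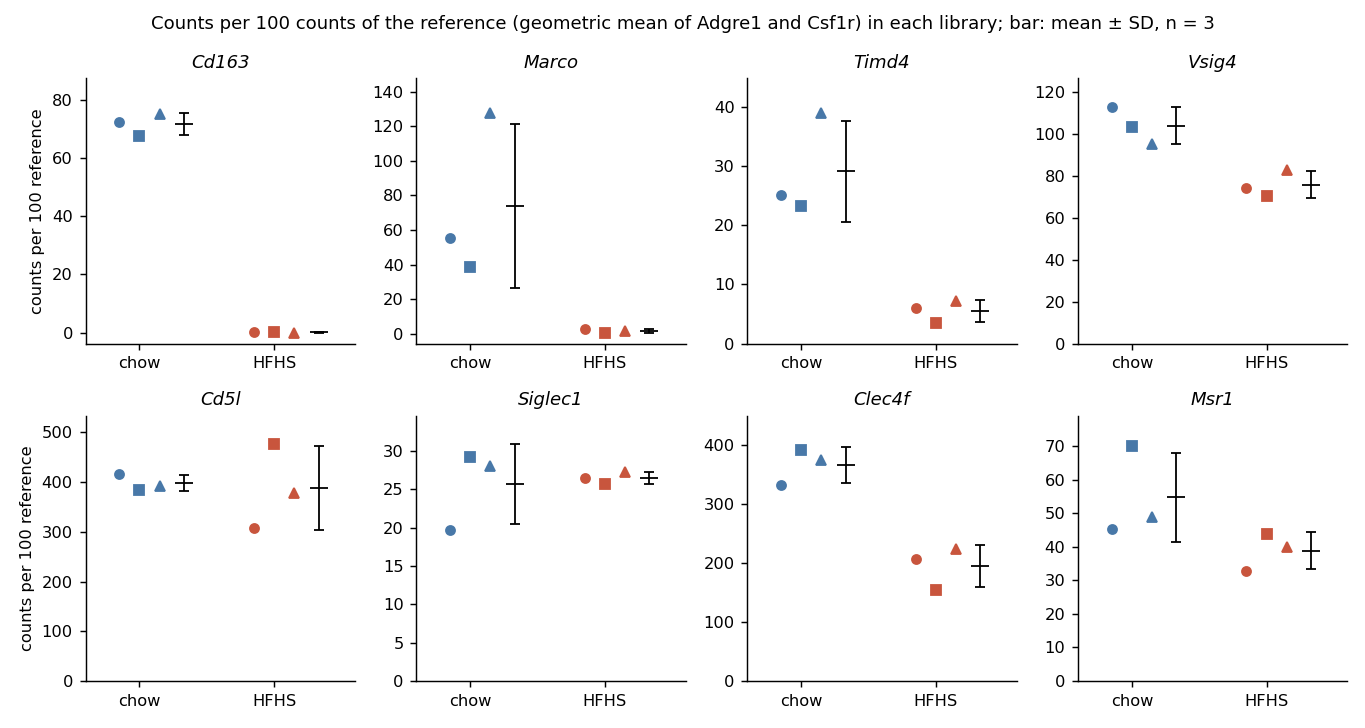
Counts of 8 genes per 100 counts of the reference in each library (vertical axis, linear; circle, square and triangle are replicates 1, 2 and 3), with mean ± SD of 3 libraries. Timd4 and Clec4f separate by diet on this scale, and Cd5l and Siglec1 overlap.

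The difference between each gene's change and that of the reference was tested in an edgeR fit over all genes with library sizes set by the reference. Cd163 (-8.92 ± 0.47), Marco (-5.58 ± 0.38), Timd4 (-2.39 ± 0.33) and Clec4f (-0.91 ± 0.33) were lower relative to it on the log2 scale (SE; largest edgeR adjusted p = 0.00701, for Clec4f). Relative to the reference 88.9% of all tested genes were called, 87.7% as lower and 1.15% as higher, so a lower call here sets these 4 genes apart from Adgre1 and Csf1r and not from other liver genes. Vsig4 (-0.46 ± 0.31), Msr1 (-0.49 ± 0.30), Cd5l (-0.04 ± 0.34) and Siglec1 (0.05 ± 0.31) did not pass (SE), which does not show that they changed equally. The fit treats the reference as free of error: with simulated counts of 200 changed genes among 12949 it made 105 false calls among 241, so its p-values are too small. The 3 falls of Cd163, Marco and Timd4 passed with every reference tried. This does not set them apart from other liver genes: most were called lower wherever the share over all genes was taken. With Adgre1 alone or Csf1r alone that share was not taken. Clec4f did not pass with Csf1r alone (-0.64, adjusted p = 0.0590) or with a reference made of 6 other general macrophage genes (-0.31, adjusted p = 0.541; 3 of 8 were called lower there, as were 77.6% of all tested genes, with 1.95% higher and 79.5% in either direction), and Vsig4 and Msr1 passed as lower with Adgre1 alone (-0.72 and -0.76).

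**Figure D3:**
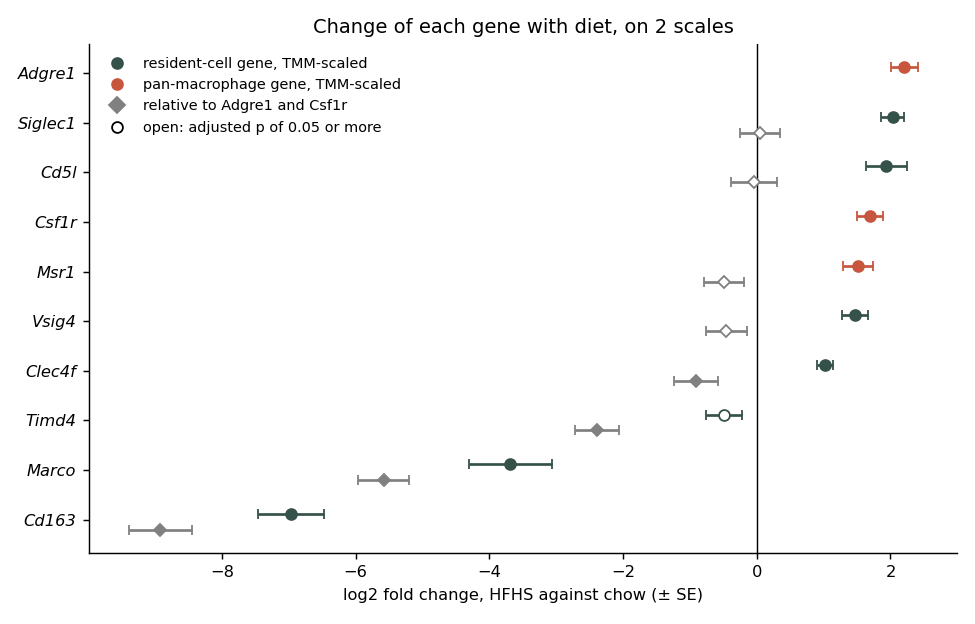
Log2 fold change of HFHS against chow ± SE (horizontal axis) for each gene, as TMM-scaled levels (circles) and relative to Adgre1 and Csf1r (grey diamonds), with open symbols where the adjusted p was 0.05 or more. Timd4 is open on the first scale at -0.49 and filled on the second at -2.39, and Siglec1 and Cd5l move from near 2 to near 0.

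Set against Clec4f in place of the general macrophage genes, a comparison added after the data were seen, the resident-cell genes also parted from each other. Timd4 came to 7.53, 5.94 and 10.4 counts per 100 counts of Clec4f in chow replicates 1, 2 and 3 and to 2.91, 2.29 and 3.21 in HFHS replicates 1, 2 and 3, with no overlap. Relative to Clec4f it was lower by -1.51 ± 0.27 on the log2 scale, as were Marco (-4.70 ± 0.67) and Cd163 (-7.97 ± 0.41). Siglec1 (1.00 ± 0.20), Cd5l (0.93 ± 0.27) and Vsig4 (0.47 ± 0.17) were higher relative to Clec4f (SE; edgeR adjusted p = 0.000511, 0.00703 and 0.0244). On this scale 79.1% of all tested genes were called, 74.5% as lower and 4.52% as higher, and the groups lay apart with HFHS below for 75.8% and above for 5.06%.

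Levels were compared between genes per kb of exon, using the union of exons in GENCODE M21. Cd5l (45.5 ± 10.2 CPM per kb) and Clec4f (34.0 ± 3.33) were the highest of the 10 in chow, followed by Vsig4 (16.3 ± 4.16), Marco (8.89 ± 5.53), Csf1r (6.74 ± 1.00), Adgre1 (4.26 ± 0.937), Timd4 (3.09 ± 0.966), Cd163 (3.06 ± 0.640), Msr1 (1.95 ± 0.213) and Siglec1 (0.811 ± 0.059) (SD, n = 3). The chow ranges of Cd5l and Clec4f, of Vsig4 and Marco, of Marco and Csf1r, of Adgre1 and Timd4, and of Timd4 and Cd163 overlapped, so these neighbours were not told apart. In HFHS the first 3 genes were again Cd5l (175 ± 71.9 CPM per kb), Clec4f (69.0 ± 3.50) and Vsig4 (45.2 ± 6.08). Csf1r (21.9 ± 5.06) and Adgre1 (19.7 ± 3.78), which overlapped, came next, then Msr1 (5.56 ± 1.76), Siglec1 (3.31 ± 0.606), Timd4 (2.19 ± 0.351), Marco (0.699 ± 0.391) and Cd163 (0.023 ± 0.024) (SD, n = 3). By mean level per kb of exon, Marco moved from place 4 to place 9 of the 10 and Siglec1 from 10 to 7. Per kb of coding sequence the order in the middle differed: Msr1 was in place 6 in chow and 5 in HFHS, Marco in place 5 in chow and 9 in HFHS, and Siglec1 in place 10 in chow and 8 in HFHS, where its range overlapped that of Timd4.

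**Figure D4:**
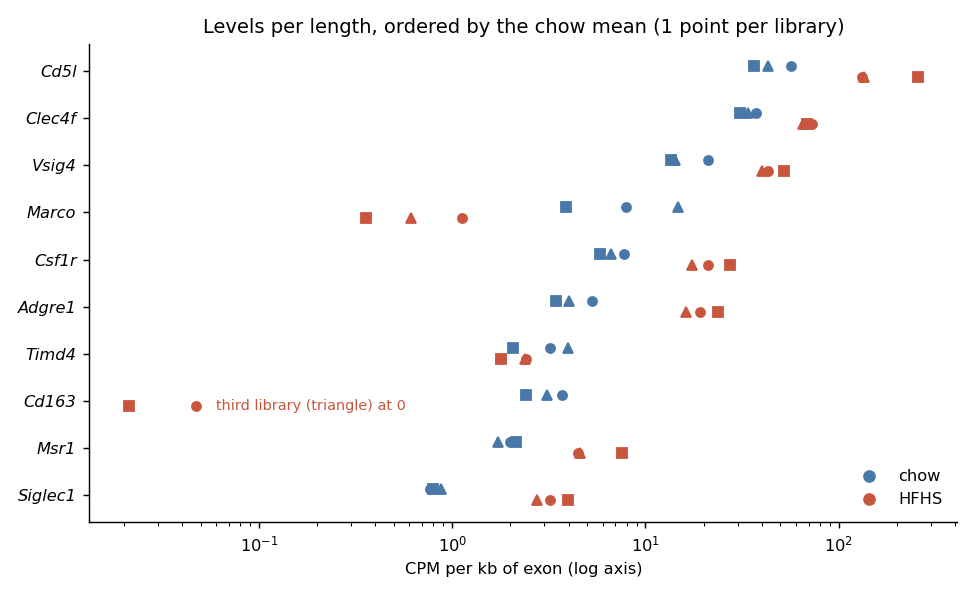
CPM per kb of exon on a log axis for each gene in each library (circle, square and triangle are replicates 1, 2 and 3), ordered by the chow mean. Marco and Cd163 lie to the left of their chow points in HFHS, and the HFHS library of Cd163 with 0 counts is written in.

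The genes whose pattern over the 6 libraries was most like that of 3 of the members were found by the root mean square difference of their log2 ratios to the chow mean. For Cd163, whose HFHS ratios rest on 8 counts, none of the genes searched came close. The nearest, squalene epoxidase Sqle, differed by 1.54, followed by Mup12 (1.79) and Meg3 (1.85). Lrtm1 was nearest to Marco at 0.50, with a fall of -3.01 on the log2 scale, then Fam19a2 (0.69) and the sterol enzyme gene Msmo1 (0.73). Msr1 had close neighbours in P3h3 (0.051), Rab3il1 (0.060) and Far1 (0.090).

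Other genes that are known from Kupffer cells, in a list of 20 of which 19 were tested, rose in 8 cases and fell in 1, with a median log2 fold change of 0.78. The fall was that of Fcna, a ficolin that recognises microbial sugars, at 43.7, 42.6 and 41.6 CPM in chow replicates 1, 2 and 3 and 25.2, 19.4 and 24.5 CPM in HFHS replicates 1, 2 and 3 (-0.89 ± 0.13, SE; edgeR adjusted p = 0.0102). Folr2, a folate receptor, rose by 1.40 ± 0.20, and Clec1b, the lectin CLEC-2, by 1.36 ± 0.27. The regulators of Kupffer cell identity did not pass: Nr1h3, which encodes LXR alpha and is also expressed by hepatocytes (-0.13 ± 0.11), Id3 (0.43 ± 0.25) and Spic (1.05 ± 0.34). Other general macrophage genes rose in 13 of 15 and fell in 1, with a median of 2.02. Fcer1g, the shared Fc receptor chain, rose by 1.79 ± 0.27 and Cybb, a subunit of the phagocyte oxidase, by 2.38 ± 0.39.

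Genes typical of macrophages recruited from monocytes rose in 11 of 15 tested; their median log2 fold change was 2.74. Spp1, which encodes the secreted protein osteopontin, rose by 2.74 ± 0.32. The monocyte chemokine receptor Ccr2 was at 2.50, 1.04 and 0.808 CPM in chow replicates 1, 2 and 3 and at 8.11, 34.2 and 8.32 CPM in HFHS replicates 1, 2 and 3, highest in HFHS replicate 2. Summed over all 16 listed genes, this class reached 51.0 to 93.8 CPM in chow and 339 to 986 CPM in HFHS, and its part in the rises of Msr1, Adgre1 and Csf1r was not tested. Rises in the Kupffer cell, general macrophage and recruited lists came to 3, 10 and 5 without chow replicate 1, and to 3, 1 and 3 without chow replicate 2. Rises over the whole table also dropped there, from 1428 to 762 and 345. Leaving out chow replicate 3 brought the calls of edgeR to 0 in all 3 lists, with 10, 15 and 12 at an unadjusted p under 0.05. The Kupffer cell list had 1 gene called lower without each library except chow replicate 3, where it had 0. The general macrophage list had 1 gene called lower without HFHS replicate 2 and 0 without any other library. Of the recruited list, limma-voom called 3 genes higher, and over the whole table it called 992.

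**Figure D5:**
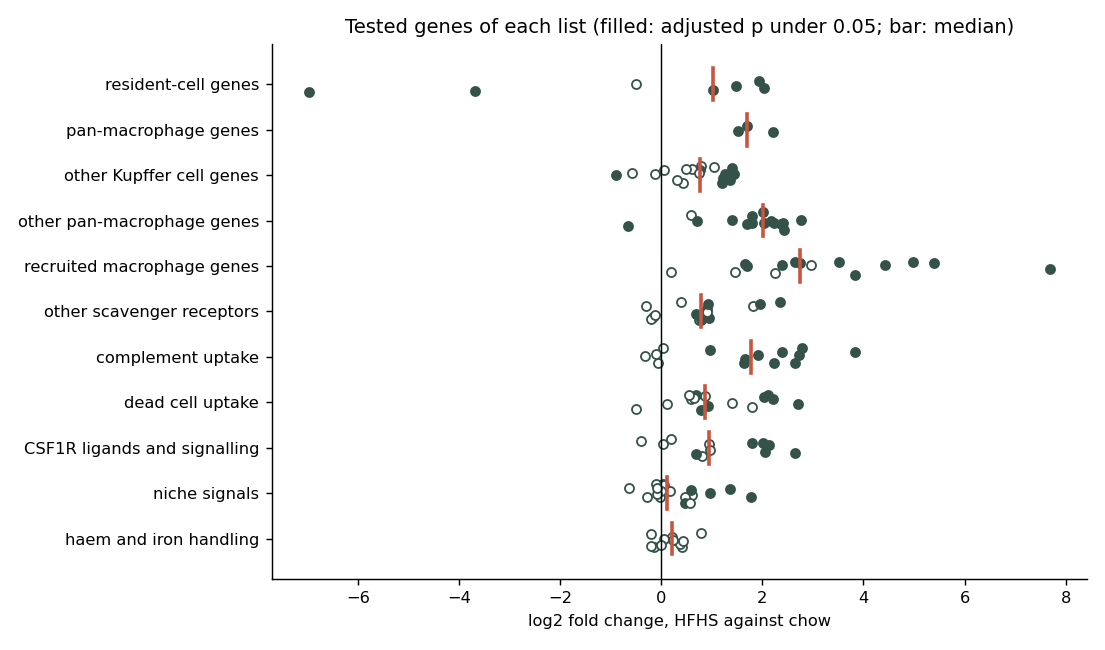
Log2 fold change of HFHS against chow (horizontal axis) for each tested gene of the 10 described and of 9 related lists, filled where the adjusted p was under 0.05, with the median of each list as a bar. The resident-cell row spans from -6.97 to 2.03, wider than the row of other Kupffer cell genes, whose single filled point below 0 is Fcna.

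Scavenger receptors other than these were tested for 15 of 22 listed genes, of which 7 rose and 0 fell, with a median of 0.79. Mrc1, the mannose receptor of macrophages and sinusoidal endothelium, went from 35.5, 46.4 and 39.7 CPM in chow replicates 1, 2 and 3 to 80.4, 82.0 and 70.1 CPM in HFHS replicates 1, 2 and 3 (0.93 ± 0.13, SE). Lgals3bp, a secreted member of the family to which Cd163 and Cd5l belong, rose by 0.92 ± 0.14. Scarb2, a lysosomal membrane receptor, did not pass (-0.31 ± 0.12). No other listed scavenger receptor was called lower by edgeR or limma-voom, and DESeq2 called 1. Receptors and bridging proteins for dying cells rose in 7 of 15, among them the kinase receptor Axl (2.21 ± 0.34) and the bridge Mfge8 (2.04 ± 0.28). Timd2, a relative of Timd4, was at -0.50 ± 0.16 and did not pass. Complement receptors and components rose in 10 of 14, with C3ar1 at 2.71 ± 0.38 and C5ar1 at 2.79 ± 0.45, and Cd59a at -0.11 ± 0.10 did not pass. Rises in the scavenger, dying cell and complement lists came to 2, 4 and 7 without chow replicate 1, and to 3, 2 and 1 without chow replicate 2. They came to 0 by edgeR without chow replicate 3, with 10, 12 and 10 at an unadjusted p under 0.05. Scavenger rises were 4 without HFHS replicate 1, and rises of the dying cell list were 11 without HFHS replicate 3.

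Ligands and signalling partners of CSF1R rose in 6 of 12, with a median of 0.95. Neither ligand passed: Csf1 was at 18.9, 9.68 and 12.2 CPM in chow replicates 1, 2 and 3 and at 20.8, 36.5 and 21.3 CPM in HFHS replicates 1, 2 and 3 (0.95 ± 0.31, SE; edgeR adjusted p = 0.0804), and Il34 had 0.96 ± 0.35. The phosphatase Inpp5d rose by 2.14 ± 0.36 and the Fc receptor Fcgr3 by 2.05 ± 0.38, and Cebpa, also a hepatocyte factor, did not pass (-0.39 ± 0.19). Signals of the Kupffer cell niche rose in 5 of 18, with a median of 0.11. Tgfb1 (1.36 ± 0.22) and Gdf2, which encodes BMP9 (0.96 ± 0.17), rose, while Smad4, which carries BMP and TGF-beta signals, did not pass (-0.27 ± 0.12). Haem and iron genes that act with Cd163 gave 0 calls in 11 tested by edgeR, with 2 at an unadjusted p under 0.05 (a smaller share than the 32.3% of all tested genes), 1 call by DESeq2 and 0 by limma-voom. The 17 listed, 4 of them without a count, summed to 11018 to 16847 CPM in chow, beside 13.1 to 20.1 CPM for Cd163. Which cells their counts came from was not tested. Adam17, a protease known to shed CD163, had 0.44 ± 0.13, the haem oxygenase Hmox1 0.78 ± 0.24 and the receptor Lrp1 -0.20 ± 0.19. CSF1R and niche rises came to 3 and 3 without chow replicate 1, to 0 and 1 without chow replicate 2, and to 0 and 0 by edgeR without chow replicate 3. Unadjusted p under 0.05 then held for 7 and 7, and for 6 and 5, of the 2 lists. Niche rises were 3 without HFHS replicate 1, and 1 haem gene passed as lower without HFHS replicate 2 and 1 as higher without HFHS replicate 3.

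Markers of other cells that can express some of these genes were read in the same way. Dendritic cell markers rose in 3 of 5 tested (Flt3, Xcr1 and Clec9a), and the 7 listed summed to 6.76 to 9.56 CPM in chow and 13.4 to 18.9 CPM in HFHS. The sum of 7 neutrophil markers was 2.36 to 7.68 CPM in chow and 10.7 to 37.8 CPM in HFHS. Of these, 0 of 3 tested were called by edgeR or limma-voom, with 3 at an unadjusted p under 0.05. Without chow replicate 1 or HFHS replicate 3, edgeR called 1. DESeq2, which was run on every gene with a count and so on more of these markers, called 4. Sinusoidal endothelial markers rose in 4 of 8, with Lyve1 at 2.36 ± 0.29 and Pecam1 at 0.95 ± 0.12, and summed to 201 to 253 CPM in chow and 281 to 364 CPM in HFHS. Of lymphocyte markers 1 of 8 rose, Ncr1 (2.51 ± 0.49), and the 10 listed summed to 3.77 to 6.84 CPM in chow and 8.21 to 15.5 CPM in HFHS. The size of the Ncr1 rise rests on 3, 2 and 1 counts in chow replicates 1, 2 and 3, against 13, 22 and 10 in HFHS. Stellate cell markers rose in 6 of 7, with Reln at 1.15 ± 0.13 and Pdgfrb at 2.00 ± 0.27, and summed to 177 to 225 CPM in chow and 448 to 710 CPM in HFHS. Marginal zone macrophages of the spleen carry Marco and Siglec1 as well. Of 3 tested markers 1 rose, the adhesion molecule gene Vcam1, which endothelium also expresses (1.99 ± 0.46), and it was 0 without chow replicate 2, chow replicate 3 or HFHS replicate 2. The marginal zone lectin gene Cd209b had a mean of 0.333 CPM in chow and 0.079 CPM in HFHS, from 17 and 5 counts. Cd209d had means of 0.041 and 0.013 CPM, from 2 counts and 1 count. Both fell below the filter and were not tested. Peritoneal macrophages can express Timd4 and Cd5l, and of their markers Icam2 (1.06 ± 0.31) and F5 (-0.27 ± 0.16) did not pass. Of 5 tested, 0 were called by edgeR or limma-voom (1 higher without chow replicate 1 and without HFHS replicate 2). There was 1 at an unadjusted p under 0.05, and DESeq2 made 2 calls. In chow F5 had a mean of 900 CPM and Lrg1, also listed, 308 CPM, beside 1.95 CPM for Icam2. Which cells these counts came from was not tested. No hepatocyte marker of 6 was called by edgeR or limma-voom, with 3 at an unadjusted p under 0.05 and 3 called lower by DESeq2. In the hepatocyte list 1 gene was called lower without HFHS replicate 2 and 1 without HFHS replicate 3. Among these markers Ttr had -0.87 ± 0.24 and Hnf4a -0.56 ± 0.17. The part of these cells in the values of the 10 genes was not tested. Without chow replicate 2 the dendritic, lymphocyte, endothelial and stellate rises came to 0, 0, 3 and 3, with 3, 3, 6 and 7 at an unadjusted p under 0.05, and without chow replicate 3 all 4 came to 0, with 3, 3, 4 and 6. Dendritic rises were 1 each without chow replicate 1, without HFHS replicate 2 and with limma-voom. Endothelial rises were 2 each without chow replicate 1 and HFHS replicate 1, and lymphocyte rises were 2 without chow replicate 1.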

How the data were processed

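PolyA RNA of 6 liver libraries was made into dUTP-based stranded libraries, per the labels' protocols, and aligned with STAR to mm10, per the submitters' processing notes. For the counting program, its annotation and strand setting, nothing is given in the sources used here. In the deposited tables values are whole-number counts per gene, with no normalisation by the authors. Rows for reads outside genes (7.74% to 10.6% of all counts) and for ambiguous reads (0.615% to 0.862%) were left out. File names follow one pattern for chow and another for HFHS, and no batch is labelled, so handling and diet cannot be told apart.

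Genes were filtered with filterByExpr (minimum count 10), scaled by TMM and tested with edgeR's robust quasi-likelihood F test without covariates, with Benjamini-Hochberg adjustment over 12949 genes (edgeR 4.0.16, limma 3.58.1, DESeq2 1.42.0, R 4.3.3). A second fit set library sizes by Adgre1 and Csf1r. DESeq2 was run on the 17877 genes with a count, so its calls in a list can exceed the number that edgeR tested. SE is the log2 fold change divided by the square root of F. Exact permutation of 3 against 3 libraries cannot give p below 0.1, so it was not used. Within a group, no pair of replicates had a chi-square per gene below 23.5, and each was counted once.

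The 10 genes and all lists were chosen with earlier results of these data known. From each list the 2 tested genes with the smallest p and the best-ranked one of the less frequent direction are named, except 2 genes that are not reported here. Other examples were picked with their values known, and some genes stand in several lists. On simulated counts of 3 chow against 3 HFHS libraries, with 200 of 12949 genes changed, edgeR recovered 45% of 2-fold and 89% of 4-fold changes with 21 false calls among 155. A floor of 3 counts covers counting error alone, because reads without molecular identifiers are not independent. Alternatives were other scalings, no filter, DESeq2, limma-voom, no robust estimation, a replicate block, each library left out and other reference genes.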

Additional observations from a re-analysis of the deposited data

How the results depend on the processing

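The 7 rises and 2 falls among the 10 genes were the same in number with RLE, upper-quartile or library size scaling, no filter, DESeq2, limma-voom, no robust estimation and the replicate block. Leaving out each library in turn gave 0 to 7 rises and 1 to 2 falls among them. Over all genes this gave 4 to 1664 higher and 2 to 772 lower, against 1428 and 468 in the full set. Genes called lower came to 200 with library size only, 1006 with DESeq2 and 282 with the replicate block. With library size only, the median log2 change of all genes shifted by 0.27, and 90.6% of calls were rises, against 75.3%. No pairing by the numbers 1 to 3 was seen. Deviations of same-numbered libraries from their group means correlated at -0.253, -0.166 and 0.029, beside -0.0795 to 0.234 for differently numbered ones. Deviations within groups of 3 depend on each other, so this check cannot exclude a shared source. With the block the 10 genes again gave 7 rises and 2 falls.

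Relative to the general macrophage genes 4 members were lower and 0 higher in edgeR and limma-voom, with 4 at an unadjusted p under 0.05, also without each library in turn (4 and 4 lower, 0 and 0 higher at the extremes). With Clec4f as reference 3 were higher, while Cd163, Marco and Timd4 were lower. Adgre1 and Csf1r were left out of that count. Per 100 counts of Clec4f, Adgre1 was at 16.3 ± 1.99 in chow and 37.4 ± 6.84 in HFHS. Csf1r was at 46.2 ± 2.33 in chow and 74.2 ± 16.6 in HFHS (SD, n = 3). Values near 0 changed sign: with each library left out in turn Siglec1 ranged from -0.12 (without chow replicate 1) to 0.16 and Cd5l from -0.21 to 0.10 (without HFHS replicate 1), while Siglec1 was at -0.22 with Adgre1 alone and Cd5l at 0.22 with Csf1r alone. With the other general macrophage genes as reference, Vsig4 was at 0.12, Cd5l at 0.48 and Msr1 at 0.045. With Clec4f as reference they were at 0.47, 0.93 and 0.48. The cause was not tested. Low counts limit Cd163 in HFHS, where 3 counts equal 0.115 to 0.168 CPM.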
